A study of Mus musculus with 15 samples.

Results

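Livers of mice that received an alcohol diet together with UA were compared with livers of mice that received the alcohol diet alone, by RNA sequencing of liver RNA. The labels do not spell out UA, give no dose or duration, and record for every mouse a wild-type genotype without age, sex or strain. The 2 groups compared here are Alc, alcohol diet, and Alc UA, alcohol diet with UA, with 5 mice each and 1 library per mouse. A further group of 5 mice on a control diet, Ctrl, is used only for its levels. Alcohol is therefore shared by both groups compared, and no group received UA without alcohol. Of 18510 rows of the expression table, 10495 were compared, namely those that reached 1 FPKM in 5 or more of the 10 Alc and Alc UA libraries. FPKM counts the fragments of a transcript per length and per fragments sequenced in the library. Values were divided by a size factor for each library, the median ratio of its genes to their geometric means over the 10 libraries, and are called scaled FPKM below.

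No gene passed the test across all 10495 genes at an adjusted p under 0.05 (limma, 0% called), and the smallest adjusted p was 0.121, for the major urinary protein gene Mup5. At an unadjusted p under 0.05, 420 genes were higher in Alc UA (4% of those tested) and 462 were lower (4.4%). That split depended on scale: the deposited FPKM gave 169 higher and 686 lower with a median over all genes of -0.05, and libraries scaled to the same FPKM sum gave 100 and 1190 with a median of -0.09. In 64 genes every Alc UA library lay above every Alc library (0.61%), and in 67 every one lay below (0.638%). The differences were mostly small, with a median SE of 0.0998 on the log2 scale, and 145 genes were higher and 114 lower by more than 0.5. Against that background, 1 set of genes stood apart in size. These were the liver's male-biased secretory and steroid-metabolising genes, chiefly the major urinary protein genes, which were higher in Alc UA. Cyp2b9, which is female-biased, was lower, but of the 13 female-biased genes tested it alone had separate groups. In 4 of the 13 the mean was higher in Alc UA, and the list's median was -0.22. The Mup, male-biased and female-biased lists kept the sign of their medians on all 3 scales. Smaller differences lay in bile acid and organic anion transporters, glutathione transferases, lipogenic genes, glycogen synthesis and endothelial markers. Leaving out Alc UA 1 brought 2 genes under the threshold, Mup5 (adjusted p = 0.0106) and Cyp3a59 (adjusted p = 0.0226), and fitting all 15 libraries together brought 1, Mup5 (adjusted p = 0.00385). The count at an unadjusted p under 0.05 was 1475 without Alc UA 3 and 585 without Alc UA 2, against 882 with all. Since nothing passed the test with all 10 libraries, the text gives levels and differences, and an adjusted p above the threshold does not show that 2 groups are alike.

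The liver serves as the source of most plasma proteins and as the main site of alcohol oxidation, in which alcohol dehydrogenase and the P450 enzyme CYP2E1 turn ethanol into acetaldehyde and aldehyde dehydrogenase oxidises that further. Many of its genes differ between the sexes in mice, because growth hormone is released in pulses in males and more evenly in females, and the transcription factor STAT5b reads this pattern. Major urinary proteins, small lipocalins that carry pheromones into the urine, are the most abundant products of that male programme, and their messengers depend on pulsatile growth hormone, androgens and feeding state.

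FPKM sums were 551153 to 589703 in Alc and 572441 to 603154 in Alc UA, a difference of means of 21430 (exact permutation test, two-sided p = 0.0476, adjusted p = 0.19 over the 4 library measures compared). Between 10119 and 10873 genes reached 1 FPKM in a library. Albumin, Alb, was between 14396 and 44230 scaled FPKM, and the Y-linked gene Ddx3y was present in all 10 libraries, at 10.5 to 16.2. Several libraries stood apart from their group. On the first principal component Alc UA 3 lay at 12.1, among the Alc libraries at -3.85 to 14.6, whereas the other Alc UA libraries lay at -22.8 to -6.68. On the second, Alc 4 lay highest, at 23.8, with Alc UA 2 next at 14.4. Where such a library decides a result, the value without it is given. In bulk liver, fewer cells of a type and less RNA per cell cannot be told apart.

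All 21 major urinary protein genes tested had a higher mean in Alc UA. At an unadjusted p under 0.05, 16 were higher (76.2%, against 4% of all genes tested), and in 9 the groups did not overlap, against 0.61%. The family's median log2 difference was 1.58, against 0.00 over all genes tested. Its genes made up 2.77% to 11.3% of all FPKM in Alc libraries, 12.6% to 22.1% in Alc UA libraries and 8.66% to 12.98% in Ctrl libraries. Messengers of this family differ by few bases, and no source used here says how reads were divided among them, so single members are less certain than the family. Mup12 was 105, 86.9, 55.97, 12.4 and 75.1 in the 5 Alc livers and 626, 1070.3, 494, 317 and 1741 in the 5 Alc UA livers, a log2 difference of 3.68 ± 0.58 (limma adjusted p = 0.202). The lowest Alc UA liver therefore held more than the highest Alc liver, and Alc 4 held the least of all 10. Mup1 was 293, 272, 227, 20.3 and 104 in Alc and 1869, 1522, 839, 700.1 and 1913 in Alc UA, a difference of 3.25 ± 0.66 (adjusted p = 0.202). Mup5 was 2.74, 2.89, 3.97, 1.76 and 2.49 in Alc and 8.12, 22.7, 15.4, 15.999 and 37.2 in Alc UA, a difference of 2.34 ± 0.31 (adjusted p = 0.121). Neither gene overlapped between the groups, and Alc 4 was again the lowest library in both.

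Mup21 was 67.7, 93.1, 81.9, 53.5 and 33.9 in Alc and 249.9, 152, 281, 107 and 233 in Alc UA, a difference of 1.61 ± 0.31 (adjusted p = 0.202). It is a member in which the Alc UA livers still lay below Ctrl, which held 316, 647, 420.4, 706 and 478. Mup4 was 2.28, 2.89, 2.59, 0.7096 and 1.04 in Alc and 3.74, 8.92, 6.21, 7.07 and 12.8 in Alc UA, a difference of 1.58 ± 0.30 (adjusted p = 0.202). Its Ctrl libraries, at 1.27 to 3.23, overlapped with those of Alc and lay below those of Alc UA. At the other end of the family, Mup3 differed by 0.67 ± 0.39 and Mup10 by 0.30 ± 0.28, both with overlapping groups (adjusted p = 0.625 and 0.748). Mup20, also called darcin, was 6857, 3929, 12829.9, 2044 and 1203 in Alc and 10473, 11987, 9684, 9254 and 7161 in Alc UA, a difference of 1.31 ± 0.53. Its Alc libraries spread widely, with Alc 3 above every Alc UA library, while the Alc UA libraries lay close together. Mup19, with the highest mean of the family in both groups, differed by 1.199 ± 0.45. Mup22, which was not on the list, was 3267 to 8214 in Alc and 6919 to 12165 in Alc UA, a difference of 0.47 ± 0.28. The pseudogenes Mup-ps12 and Mup-ps16, chosen here after their values were seen, differed by 0.00 ± 0.23 and -0.21 ± 0.24 (adjusted p = 0.998 and 0.797).

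Alc 4 had the lowest level of its group in 19 of the 21 genes, and Alc UA 4 the lowest of its group in 12, while Alc UA 5 was highest in 15. Without Alc 4 the family's median difference was 1.21 with 14 genes at an unadjusted p under 0.05, and without Alc UA 3 it was 1.48 with 15. All 21 differences stayed positive in both cases, whereas quantile normalization left 20 positive and turned Mup10 to -0.01. Leaving out any 1 of the 10 libraries gave medians of 1.21 to 1.70 and between 13 and 18 genes.

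**Figure D1:**
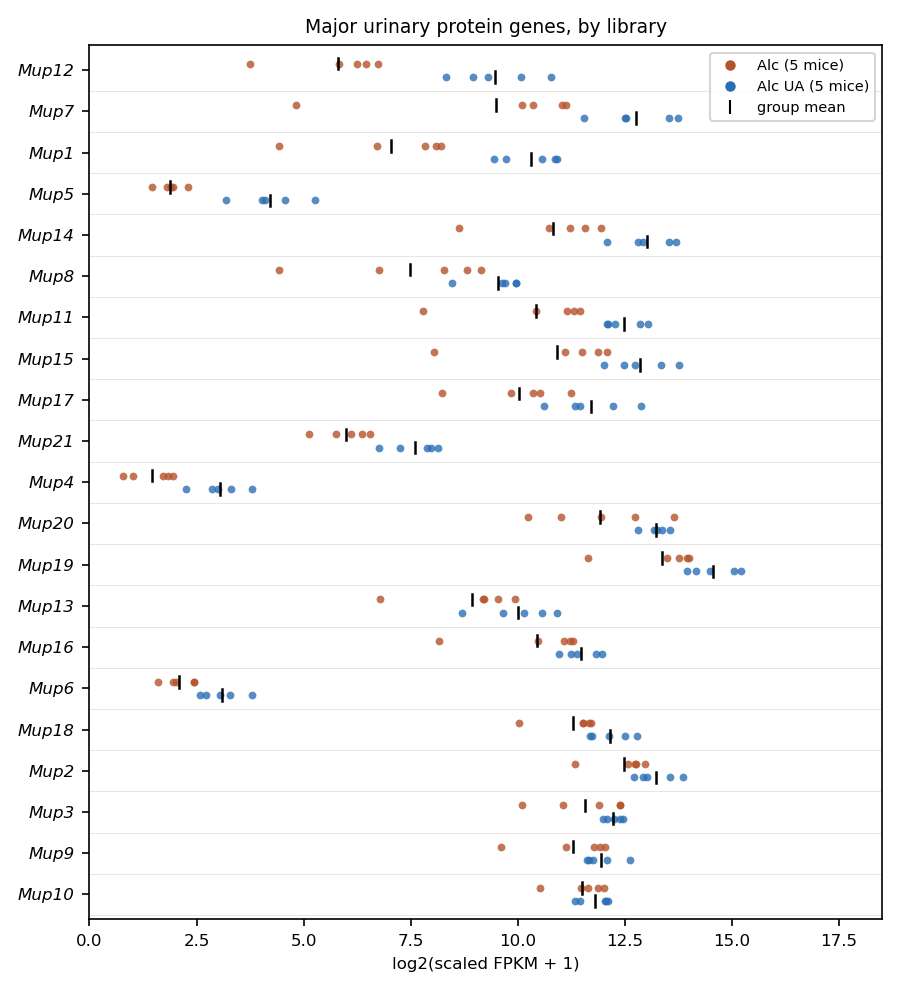
Level of each of the 21 major urinary protein genes in each library, as log2(scaled FPKM + 1), with 5 Alc mice (orange), 5 Alc UA mice (blue) and group means (bars), ordered by the size of the difference. All 21 means are higher in Alc UA, from 0.30 for Mup10 to 3.68 for Mup12, and Alc 4 is the lowest Alc library in 19 of the 21 rows.

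Most promoters of these genes that could be matched share a run of bases. RefSeq start sites on the GRCm38.p6 assembly were matched for 14 of the 21 listed genes. The 7 without a match were Mup1, Mup5, Mup8, Mup12, Mup13, Mup16 and Mup20. Mup12, Mup1 and Mup5, with the largest differences given above, are therefore not covered. The 150 bases before the start are shown for Mup21, Mup3 and Mup4, which differed by 0.67 to 1.61, and for Cyp2b9, which differed in the other direction. Mup21 is at chr4:62150842-62150991, Mup3 at chr4:62087318-62087467 and Mup4 at chr4:59960668-59960817, all on the minus strand, and Cyp2b9 is at chr7:26173259-26173408 on the plus strand. Capitals mark the longest run, of 16 bases, that the 3 Mup promoters share.
Mup21: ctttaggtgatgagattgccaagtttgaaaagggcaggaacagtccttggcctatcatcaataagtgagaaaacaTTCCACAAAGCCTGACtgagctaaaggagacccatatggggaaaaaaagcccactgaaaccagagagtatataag
Mup3: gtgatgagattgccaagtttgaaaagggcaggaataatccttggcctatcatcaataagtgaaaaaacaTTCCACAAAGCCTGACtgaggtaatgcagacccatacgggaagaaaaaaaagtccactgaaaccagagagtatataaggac
Mup4: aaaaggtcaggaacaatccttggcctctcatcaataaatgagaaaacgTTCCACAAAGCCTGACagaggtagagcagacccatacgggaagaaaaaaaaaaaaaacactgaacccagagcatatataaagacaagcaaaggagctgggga
Cyp2b9: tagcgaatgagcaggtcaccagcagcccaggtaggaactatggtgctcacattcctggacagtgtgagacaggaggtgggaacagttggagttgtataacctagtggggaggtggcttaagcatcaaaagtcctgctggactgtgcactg
The run TTCCACAAAGCCTGAC occurred within 250 bases before the start in 11 of the 14 Mup promoters and in no other of 27025 genes (0.0407% of genes in all). That run was taken from Mup21, Mup3 and Mup4, so their matches were fixed in advance. The Mup genes are a family of similar sequence, and a link of the run to the differences in level was not tested. Within the windows shown, Mup21 and Mup3 shared an unbroken run of 34 bases. The longest run shared by Mup21 and Cyp2b9, which is not of this family, was 8 bases. The STAT5 element TTCNNNGAA, searched on both strands within 250 bases before the start, matched in 0 of the 14 Mup promoters, in 1 of 17 male-biased and in 1 of 7 female-biased genes with a promoter, against 7.03% of the 8418 tested genes with one. The TATA box, searched as the exact letters TATAAA, matched in 2 of the 14 Mup promoters (14.3%), Mup4 among them, against 8.36% of tested genes. Mup21 and Mup3, whose windows hold the similar letters tatataag near the end, were not counted by this search. These are matches of letters in a short window and say nothing of sites outside it.

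The list of male-biased liver genes held 24 tested genes, 8 of them Mup genes. Among the other 16, all 16 had a higher mean in Alc UA, with a median difference of 0.735. At an unadjusted p under 0.05, 9 were higher, against 4% of all genes tested, and 2 did not overlap, against 0.61%. C6, a component of the complement attack complex, was 25.9, 22.8, 29.1, 8.80 and 15.01 in Alc and 63.1, 87.04, 54.6, 37.4 and 66.02 in Alc UA, a difference of 1.61 ± 0.30 (adjusted p = 0.202). Every Alc UA liver lay above every Alc liver, and Ctrl, at 29.9 to 70.9, overlapped with Alc UA only. Cyp4a12b, which hydroxylates fatty acids and arachidonate, was 20.7, 37.8, 26.95, 17.99 and 20.2 in Alc and 66.04, 98.7, 81.2, 32.8 and 60.1 in Alc UA, a difference of 1.38 ± 0.28 (adjusted p = 0.202). A single pair of libraries overlapped, Alc 2 and Alc UA 4.

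Cyp7b1, the oxysterol hydroxylase of the acidic bile acid pathway, was 30.3, 38.4, 26.02, 19.98 and 33.8 in Alc and 52.2, 110.2, 79.6, 33.2 and 84.4 in Alc UA, a difference of 1.17 ± 0.29 (adjusted p = 0.376). Hsd3b5, a male-specific keto-steroid reductase, was 2.62, 2.14, 1.33, 0.0898 and 0.300 in Alc and 11.3, 15.7, 13.7, 0.885 and 32.6 in Alc UA, a difference of 2.46 ± 0.66 (adjusted p = 0.405). Among the Alc UA livers, Alc UA 4 alone lay within the Alc range of Hsd3b5. C8b, another subunit of the attack complex, differed by 0.85 ± 0.24 without overlap, at 28.2 to 78.1 in Alc and 82.8 to 129.5 in Alc UA. Alc UA 4 was the lowest Alc UA library in 19 of the 24 male-biased genes, and Alc 4 the lowest Alc library in 15. Without Alc 4, 14 of the 24 had an unadjusted p under 0.05, without Alc UA 3 also 14, against 16 with all libraries, and the medians were 0.999 and 1.08 against 1.16.

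Female-biased genes were sparser, with 13 of 28 listed genes above the filter, and their median difference was -0.22. At an unadjusted p under 0.05, 3 were lower (23.1%) and 0 higher, against 4.4% and 4% of all genes tested. The median was -0.11 without Alc UA 2, -0.11 without Alc UA 3 and -0.33 without Alc UA 1. Cyp2b9, a female-biased P450 of the CYP2B family, was 86.98, 85.2, 56.2, 176 and 255 in the Alc livers and 3.01, 13.2, 1.11, 45.7 and 17.6 in the Alc UA livers, a difference of -3.50 ± 0.75 (adjusted p = 0.254). No library overlapped, and the Ctrl libraries held 4.91, 0.110, 0.101, 0.0663 and 0.0615, so that all Alc livers lay above every Ctrl liver while Alc UA 1 and Alc UA 3 lay below Ctrl 1. The 2 Alc livers with the most Cyp2b9, Alc 4 and Alc 5, were also the lowest of their group for Mup1, Mup4 and C6. This did not hold for Mup12, where Alc 3 lay below Alc 5, or for Cyp7b1, where Alc 5 lay above Alc 1 and Alc 3. A link between these genes across livers was not tested. Fmo1, a flavin monooxygenase, differed by -0.31 ± 0.11, at 114 to 161 in Alc and 96.7 to 119.8 in Alc UA, and Cyp17a1, a steroid hydroxylase, by -1.08 ± 0.47 (adjusted p = 0.553 and 0.582). The groups overlapped in every member except Cyp2b9, Fmo1 and Cyp17a1 included, and 4 of the 13 had a higher mean in Alc UA.

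**Figure D2:**
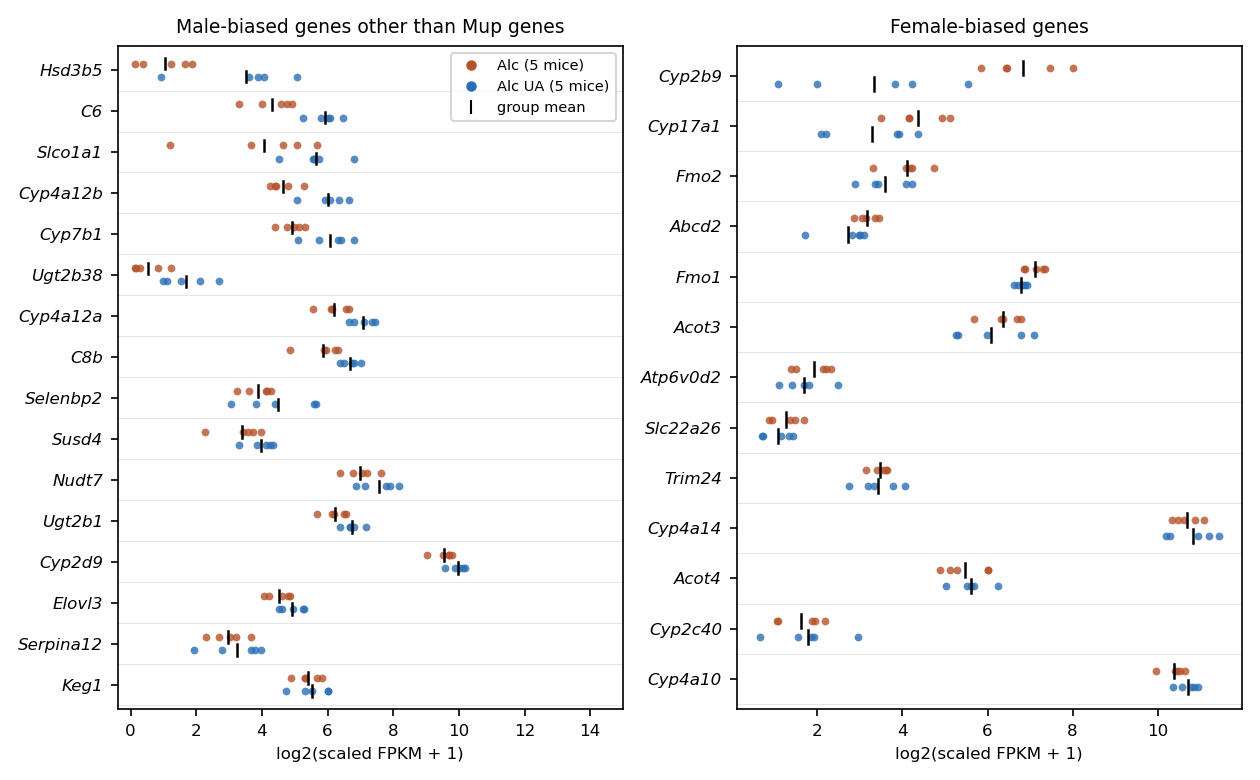
Level of male-biased genes other than Mup genes (left, 16 genes) and of female-biased genes (right, 13 genes) in each library, as log2(scaled FPKM + 1), with Alc (orange), Alc UA (blue) and group means (bars). All 16 means on the left are higher in Alc UA, whereas on the right Cyp2b9 alone shows separate groups.

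Genes of the growth hormone axis itself were mixed, with 8 of 15 higher and 7 lower and a median of 0.01, which turned negative on the deposited scale, after scaling to equal sums, and without Alc 4. Egfr, the epidermal growth factor receptor and itself dependent on growth hormone, was 54.3, 39.4, 37.8, 15.1 and 35.3 in Alc and 71.1, 98.5, 93.9, 50.1 and 115 in Alc UA, a difference of 1.26 ± 0.31 (adjusted p = 0.373). Alc UA 4 lay below Alc 1, and the other Alc UA livers lay above all of Alc. Socs2, a feedback inhibitor induced through STAT5, was 6.02, 3.08, 14.7, 4.42 and 7.16 in Alc and 12.02, 9.19, 10.9, 16.2 and 10.97 in Alc UA, a difference of 0.80 ± 0.30 (adjusted p = 0.57). Igf1, the circulating growth factor, differed by 0.19 ± 0.08, at 64.4 to 73.1 in Alc and 71.9 to 88.3 in Alc UA. Igfbp3, its carrier protein, differed by -0.41 ± 0.18, and Alc UA 2 was an exception at 8.20 against 4.91 to 5.15 in the other Alc UA livers.

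The cytochrome P450 genes of drug metabolism, Cyp2b9 among them, were lower more often than higher. Of 30 tested, 20 had a lower mean in Alc UA, with a median of -0.13. At an unadjusted p under 0.05, 9 were lower and 3 higher (40% together, against 8.4% of all genes tested). Without Cyp2b9, 19 of 29 had a lower mean, 8 were lower and 3 higher at that level, and the median was -0.116. Over all 30, the median was -0.22 without Alc 4 and -0.06 without Alc UA 2. Cyp3a59, a CYP3A family member, was 41.8, 56.5, 40.5, 41.7 and 50.9 in Alc and 36.7, 16.6, 23.7, 21.4 and 20.3 in Alc UA, a difference of -0.97 ± 0.18 (adjusted p = 0.202). Cyp2a22 was 33.96, 33.2, 40.5, 139 and 71.3 in Alc and 13.7, 12.9, 17.7, 23.7 and 15.6 in Alc UA, a difference of -1.66 ± 0.36 (adjusted p = 0.253). Neither gene overlapped between the groups, and Ctrl held 9.26 to 21.4 of Cyp3a59 and 5.04 to 31.6 of Cyp2a22, below every Alc liver. Cyp2c39, a retinoic acid hydroxylase, differed by -0.63 ± 0.21 with Alc UA 1 at 6.13, within the Alc range (adjusted p = 0.524). In the other direction, Por, the reductase that gives electrons to these enzymes, differed by 0.38 ± 0.15, at 247 to 343 in Alc and 276 to 469.7 in Alc UA (adjusted p = 0.57).

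Enzymes of conjugation also had more lower than higher means, 25 against 14, with a median of -0.13 that was -0.01 without Alc UA 5. Gstt3, a theta-class glutathione transferase, was 49.2, 48.00, 58.3, 41.2 and 66.6 in Alc and 36.97, 24.8, 23.001, 35.4 and 22.03 in Alc UA, a difference of -0.88 ± 0.17 (adjusted p = 0.202). Its relative Gstt1 differed by -0.57 ± 0.15, at 220.1 to 309 in Alc and 144 to 215 in Alc UA (adjusted p = 0.405). Both were lower in every Alc UA liver than in any Alc liver. Of 39 phase II genes, 7 were lower and 3 higher at an unadjusted p under 0.05 (25.6% together, against 8.4% of all genes tested). Cyp2e1, the ethanol-inducible P450, was 8140.4, 7397, 6842, 6902 and 8652 in Alc and 10569.8, 9618, 7191, 7969.8 and 10003 in Alc UA, and the difference of 0.25 ± 0.16 turned negative after quantile normalization (adjusted p = 0.654). Adh1 differed by -0.17 ± 0.17 and Aldh2, which clears acetaldehyde, by -0.08 ± 0.10 (adjusted p = 0.759 and 0.826). Of 19 genes of ethanol and acetaldehyde oxidation, 15 had a lower mean, with a median of -0.08. Only 1 was lower at an unadjusted p under 0.05 (5.26%), near the 4.4% of all genes tested.

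Transporters and regulators of bile acid handling included several genes without overlap. Slco1a4, a sinusoidal organic anion carrier, was 73.3, 42.1, 44.7, 37.5 and 59.8 in Alc and 34.2, 16.6, 19.9, 21.7 and 11.4 in Alc UA, a difference of -1.31 ± 0.26 (adjusted p = 0.202). Nr0b2, the nuclear receptor SHP that represses bile acid synthesis, was 22.6, 25.8, 18.6, 18.6 and 39.02 in Alc and 8.02, 8.30, 16.9, 9.23 and 16.6 in Alc UA, a difference of -1.03 ± 0.25 (adjusted p = 0.373). Each of the 5 Alc UA livers lay below each Alc liver in both genes, although the Ctrl levels of Nr0b2, 9.90 to 37.8, spanned both groups. Abcb4, the canalicular phospholipid exporter, was 112, 109.7, 89.6, 103 and 115 in Alc and 125, 172, 128, 136 and 131 in Alc UA, a difference of 0.38 ± 0.10 (adjusted p = 0.418). Slc47a1, an organic cation extruder, differed by -0.25 ± 0.07 without overlap, and Slc10a1, the bile acid importer NTCP, by -0.38 ± 0.12 with overlap. Amacr, a racemase of bile acid side chains, was higher in every Alc UA liver, at 121 to 137 against 95.3 to 115 in Alc (difference 0.26 ± 0.08). The lists as wholes were balanced, with 10 of 20 bile acid synthesis genes and 9 of 16 transporters higher.

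Lipogenic and sterol genes had lower means in Alc UA. Of 15 genes of de novo lipogenesis, 11 were lower, with a median of -0.24 that was -0.16 without Alc UA 2. At an unadjusted p under 0.05, 3 were lower (20%), against 4.4% of all genes tested. Fasn, fatty acid synthase, was 7.24, 9.75, 6.11, 9.66 and 10.5 in Alc and 4.30, 4.59, 5.64, 4.47 and 8.13 in Alc UA, a difference of -0.59 ± 0.17 (adjusted p = 0.464). Thrsp, the lipogenic nuclear protein Spot 14, was 31.8, 106, 31.7, 129.5 and 125 in Alc and 23.7, 16.6, 30.05, 11.6 and 58.8 in Alc UA, a difference of -1.51 ± 0.51 (adjusted p = 0.524). Alc 1 and Alc 3 held as little Thrsp as Alc UA livers did, so the difference lay with Alc 2, Alc 4 and Alc 5. Mid1ip1, its partner in activating acetyl-CoA carboxylase, differed by -0.42 ± 0.12, and Srebf1, which encodes the lipogenic factor SREBP1, by -0.33 ± 0.20 (adjusted p = 0.464 and 0.635). Of 24 cholesterol synthesis genes and SREBP2 targets, 21 had a lower mean, with a median of -0.24. Only 1 was lower at an unadjusted p under 0.05 (4.17%), near the 4.4% of all genes tested. That gene was Sqle, squalene epoxidase, at 1.31 to 4.17 in Alc and 0.731 to 2.02 in Alc UA (difference -0.67 ± 0.24). Without Alc 4, which had the highest level of its group in 12 of the 24, the median was -0.16, and without Alc 3, the lowest in 17, it was -0.34 with 7 genes at that level.

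Genes of fatty acid oxidation and of lipid droplets had mostly higher means, and those of triglyceride assembly mostly lower ones. Of 29 genes of fatty acid oxidation and ketogenesis, 24 had a higher mean, with a median of 0.11, but after scaling to equal sums 15 did, with a median of 0.00. Only 1 was higher at an unadjusted p under 0.05 (3.45%), against 4% of all genes tested. Of 11 genes of triglyceride assembly, 8 had a lower mean, with a median of -0.08. At an unadjusted p under 0.05, 2 were lower (18.2%), against 4.4% of all genes tested. Of 15 lipid droplet genes, 11 had a higher mean, with a median of 0.16 that was 0.04 without Alc 3 and 0.05 after scaling to equal sums. Cpt1a, which admits fatty acids to mitochondria, was 232, 233, 166, 267 and 257 in Alc and 336, 304, 268, 229.9 and 280.0 in Alc UA, a difference of 0.30 ± 0.14 (adjusted p = 0.598). Of 12 CYP4 fatty acid hydroxylases 10 had a higher mean, 3 at an unadjusted p under 0.05 (25%, against 4% of all genes tested). Among these 3 was Cyp4a12b, already described with the male-biased genes. After scaling to equal sums, 7 of the 12 had a higher mean, with a median of 0.066. Fitm2, which acts in lipid droplet formation, differed by 0.55 ± 0.23, the droplet coat gene Plin2 by 0.29 ± 0.29 and Cidec, which enlarges droplets, by 0.87 ± 0.57 (adjusted p = 0.57, 0.765 and 0.667). Cidec ranged from 4.30 to 46.7 within Alc alone, with Alc 4 highest there and Alc UA 2 highest in Alc UA.

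Among the genes of carbohydrate handling described here, 2 had separate groups. Gys2, liver glycogen synthase, was 114, 125, 103, 101 and 135 in Alc and 264, 289, 204, 141 and 139.6 in Alc UA, a difference of 0.79 ± 0.20 (adjusted p = 0.405). Gckr, the inhibitor of glucokinase, was 86.5, 84.4, 84.1, 77.1 and 84.2 in Alc and 61.6, 49.7, 63.6, 67.7 and 65.6 in Alc UA, a difference of -0.44 ± 0.09 (adjusted p = 0.202). No library of one group reached the other in either gene, although Gys2 in Alc UA 4 and Alc UA 5 lay close to the highest Alc liver. Among subunits that target phosphatase to glycogen, Ppp1r3g was 1.61, 4.39, 2.14, 9.98 and 11.03 in Alc and 66.8, 59.2, 2.57, 13.5 and 32.8 in Alc UA, a difference of 2.05 ± 0.77. In Ppp1r3g, Alc UA 3 lay among the Alc livers and the other 4 Alc UA livers lay above them. Ppp1r3b, the main hepatic subunit, differed by -0.78 ± 0.27, and Khk, fructokinase, by -0.52 ± 0.16 (adjusted p = 0.542 and 0.511). The medians of the lists were -0.02 for glycogen and -0.04 for glucose handling.

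**Figure D3:**
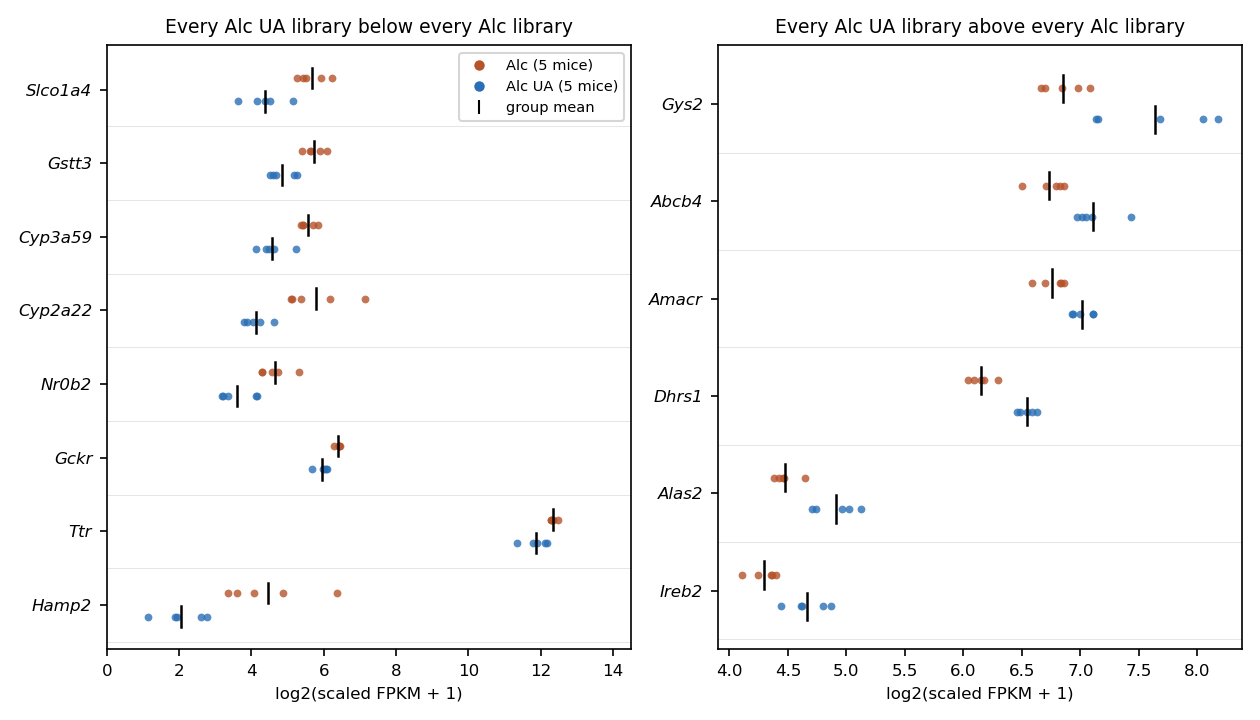
Level of 14 genes in which the Alc and Alc UA libraries did not overlap, as log2(scaled FPKM + 1), lower in Alc UA on the left and higher on the right, with 5 Alc mice (orange), 5 Alc UA mice (blue) and group means (bars). The largest differences are those of Hamp2 and Cyp2a22, and the genes on the right differ by less than 0.8 on this scale.

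Other secreted proteins and their metals gave a few separate genes as well. Hamp2, a hepcidin paralog, was 9.12, 15.7, 11.2, 28.2 and 81.3 in Alc and 2.80, 2.69, 5.85, 5.04 and 1.19 in Alc UA, a difference of -2.39 ± 0.52 (adjusted p = 0.289). Ireb2, an iron-sensing RNA-binding protein, differed by 0.37 ± 0.09, and Alas2, listed with heme synthesis, by 0.43 ± 0.09, both higher in every Alc UA liver (adjusted p = 0.376 and 0.253). Alas2 is the erythroid isoform, and of 8 erythroid markers tested it was the only 1 with a higher mean in Alc UA. Alas1, which controls heme synthesis in hepatocytes, was 423, 371, 399.8, 310.0 and 374 in Alc and 541, 354, 500.3, 593 and 674 in Alc UA, a difference of 0.48 ± 0.16 (adjusted p = 0.524). Hmox1, heme oxygenase, differed by 0.92 ± 0.37, with Alc UA 3 at 59.9 and the other Alc UA livers at 11.1 to 22.04, and without Alc UA 3 the difference was 0.56. Ttr, the plasma carrier of thyroxine and retinol-binding protein, was 5017, 5170.1, 5103, 5738 and 5023 in Alc and 3801, 2609, 4466, 3518 and 4640.4 in Alc UA, a difference of -0.48 ± 0.16 (adjusted p = 0.532). Of 23 retinol genes, 19 had a lower mean, with a median of -0.20. At an unadjusted p under 0.05, 5 were lower (21.7%), against 4.4% of all genes tested. Among them were the retinol dehydrogenase Rdh5 (-0.38 ± 0.12) and the retinal reductase Dhrs3 (-0.33 ± 0.11). Without Alc UA 2, the lowest of its group in 14, the median was -0.12 with 3 genes at that level.

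Complement and coagulation genes gave 6 of 38 higher at an unadjusted p under 0.05 (15.8%, against 4% of all genes tested) and 0 lower. Their median of 0.07 was 0.02 without Alc 4 and below 0 after scaling to equal sums. C9, which forms the pore of the attack complex, was 101, 108, 111, 52.4 and 57.5 in Alc and 148, 137, 156, 144 and 106 in Alc UA, a difference of 0.74 ± 0.22, and C8a differed by 0.55 ± 0.19 (adjusted p = 0.464 and 0.542). Alc 4 and Alc 5 held the least C9. Serpina1e, an antitrypsin paralog, was 525, 314, 446, 30.1 and 61.2 in Alc and 2143, 278, 1780.4, 826 and 874 in Alc UA, a difference of 2.48 ± 0.82 (adjusted p = 0.524). Its levels in Ctrl ran from 44.3 to 2389, as wide as in either alcohol group. In amino acid breakdown, Uroc1, urocanase, differed by -0.47 ± 0.11, Gldc, of the glycine cleavage system, by -0.68 ± 0.19, and Gamt, which makes creatine, by -0.62 ± 0.18 (adjusted p = 0.299, 0.424 and 0.464). Asns, asparagine synthetase, was 1.23, 1.80, 0.909, 4.74 and 1.2003 in Alc and 6.72, 2.03, 3.41, 4.74 and 23.1 in Alc UA, a difference of 1.31 ± 0.50, and Alc UA 5 was highest.

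Genes of mitochondrial respiration differed by little and mostly in 1 direction. Of 37 complex I genes, 35 had a lower mean in Alc UA, with a median of -0.117, and of 38 genes of complexes II to V, 33 did, with a median of -0.12. At an unadjusted p under 0.05, 2 of each were lower (5.41% and 5.26%), near the 4.4% of all genes tested that were lower at this level. Ndufb10 differed by -0.23 ± 0.08 and Ndufa5 by -0.23 ± 0.09 (limma adjusted p = 0.546 and 0.57). These counts depended on the libraries and the scale. Without Alc UA 3, which was highest of its group in 31 complex I genes, 13 genes of each list reached that level, and without Alc 4 or without Alc UA 2 it was 1 of complex I and 0 of the others. After scaling to equal sums it was 13 and 17. Proteasome subunits had a higher mean in 25 of 31, with a median of 0.07 that was -0.04 after scaling to equal sums, and Psmd2, a subunit of the regulatory particle, differed by 0.19 ± 0.08 (adjusted p = 0.57). Translation factors with tRNA synthetases had a higher mean in 27 of 31, with a median of 0.05 that was -0.06 after scaling to equal sums and also negative on the deposited scale. Pink1, a kinase of mitophagy, differed by 0.10 ± 0.08, the deacetylase gene Sirt1 by 0.08 ± 0.10 and Tfam, the mitochondrial DNA packaging factor, by 0.06 ± 0.07, each turning negative with libraries scaled to the same sum (adjusted p = 0.704, 0.831 and 0.804).

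**Figure D4:**
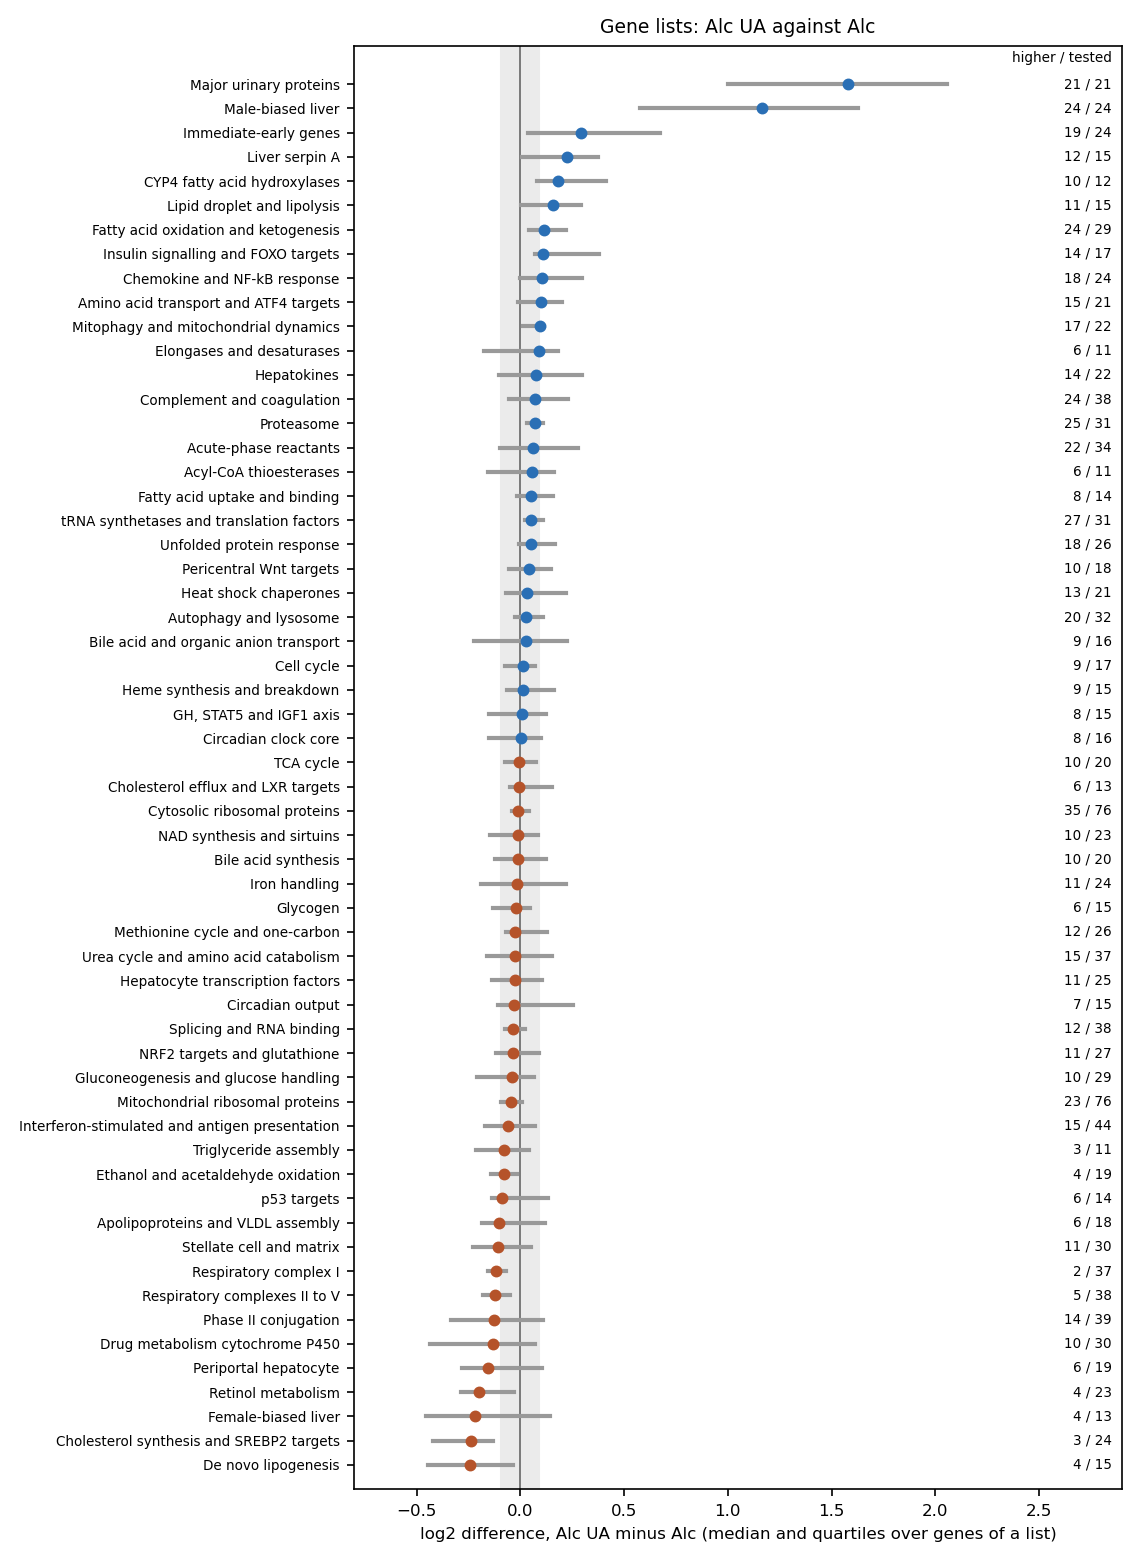
Median (points) and quartiles (bars) of the log2 differences, Alc UA minus Alc, of the tested genes of each of 58 lists, with the count of genes of higher mean and of genes tested on the right; the grey band holds the quartiles of all 10495 genes. The Mup and male-biased lists lie apart at 1.58 and 1.16, and every other median lies between -0.24 and 0.29.

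Immediate-early genes, which respond to stimuli within minutes, had a higher mean in 19 of 24, with a median of 0.29. At an unadjusted p under 0.05, 3 were higher (12.5%), against 4% of all genes tested. Fosl2, an AP-1 subunit, was 1.28, 2.57, 1.71, 2.56 and 2.86 in Alc and 5.21, 9.46, 2.19, 4.11 and 4.77 in Alc UA, a difference of 0.87 ± 0.27 (adjusted p = 0.507). Nr4a1, an orphan nuclear receptor, was 3.43, 4.79, 4.88, 16.1 and 9.85 in Alc and 79.8, 42.5, 2.49, 18.7 and 14.9 in Alc UA, a difference of 1.42 ± 0.72. Alc UA 3 was the lowest library of its group in 18 of the 24 genes and Alc 4 the highest of its group in 14. Without Alc UA 3 the median was 0.523 with 9 genes at an unadjusted p under 0.05, and without Alc UA 2, the highest of its group in 11, it was 0.195 with 1 gene. Igfbp1, which insulin represses, was 196, 38.5, 29.97, 90.5 and 92.1 in Alc and 332, 479, 29.8, 176 and 239.7 in Alc UA, a difference of 1.34 ± 0.71 (adjusted p = 0.619). Alc UA 3 held the least of all 10 livers and Alc UA 2 the most.

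Of 15 clock output genes, 3 were higher and 1 lower at an unadjusted p under 0.05 (26.7% together, against 8.4% of all genes tested). Their median of -0.03 turned positive without Alc UA 2 or Alc UA 3. Coq10b differed by 0.49 ± 0.15 and the D-box repressor gene Nfil3 by 0.55 ± 0.18 (limma adjusted p = 0.479 and 0.524). Of 16 core clock genes, 8 had a higher and 8 a lower mean. At an unadjusted p under 0.05, 1 core gene was higher (6.25%), against 4% of all genes tested. Among the core genes, the clock receptor gene Nr1d2 differed by 0.20 ± 0.08 (limma adjusted p = 0.57). Arntl, the core clock activator BMAL1, was 1.02 to 1.63 in Alc and 0.620 to 1.37 in Alc UA, but 7.93 to 10.3 in Ctrl, so Ctrl lay above both alcohol groups in this gene, without overlap. Times of collection are not given in the labels.

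Markers of cells other than hepatocytes also differed. Of 21 markers of sinusoidal endothelial cells, 20 had a lower mean in Alc UA, with a median of -0.27. At an unadjusted p under 0.05, 6 were lower (28.6%), against 4.4% of all genes tested. The summed level of the 21 markers was 128 to 256 in Alc, 139 to 161 in Alc UA and 258 to 577 in Ctrl. Gpr182, an endothelial receptor, was 4.41, 10.96, 5.89, 8.35 and 8.67 in Alc and 4.93, 4.84, 4.20, 5.06 and 5.53 in Alc UA, a difference of -0.50 ± 0.18 (adjusted p = 0.566). Alc 2 had the highest level of its group in 19 of the 21 markers and Alc 1 the lowest in 17, so the Alc livers spanned the Alc UA range. Oit3 differed by -0.50 ± 0.18, the hyaluronan receptor gene Lyve1 by -0.61 ± 0.25 and the scavenger receptor gene Stab1 by -0.27 ± 0.11. The median was -0.365 without Alc 1 and -0.185 without Alc 2, and the 6 genes became between 2 and 15 when any 1 library was left out.

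Kupffer cell markers gave 10 of 15 higher with 0 at an unadjusted p under 0.05, and here 1 liver carried the difference. Marco, a macrophage scavenger receptor, was 6.39, 16.49, 6.57, 6.66 and 4.45 in Alc and 8.77, 4.42, 137, 6.38 and 11.98 in Alc UA, and without Alc UA 3 the difference was 0.01. Spic, a transcription factor of iron-recycling macrophages, was 1.39, 1.42, 1.26, 1.30 and 1.12 in Alc and 0.781, 1.12, 31.1, 1.22 and 1.31 in Alc UA, and without Alc UA 3 its difference was -0.13. The adhesion receptor gene Adgre1 was 4.09 to 25.04 in Alc UA with Alc UA 3 again highest, and the difference was 0.10 without Alc UA 3. The summed level of 16 Kupffer markers was 214 to 351 in Alc and 231 to 758 in Alc UA, and without Alc UA 3 their median difference was -0.01 in place of 0.175. No marker of either list was at 0 in all 10 libraries, and the part of these cells in the other results was not tested. Among inflammatory genes, Il1b was 1.05, 3.13, 1.998, 6.91 and 1.53 in Alc and 5.35, 3.33, 4.05, 6.21 and 6.58 in Alc UA (difference 0.78 ± 0.32), and Cd14, a coreceptor for endotoxin, differed by 0.77 ± 0.21 (adjusted p = 0.57 and 0.418). Saa1, an acute-phase reactant, differed by 0.30 ± 0.65, Lcn2 by -0.43 ± 0.46 and the collagen gene Col1a1 by -0.23 ± 0.31 (adjusted p = 0.904, 0.78 and 0.842).

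**Figure D5:**
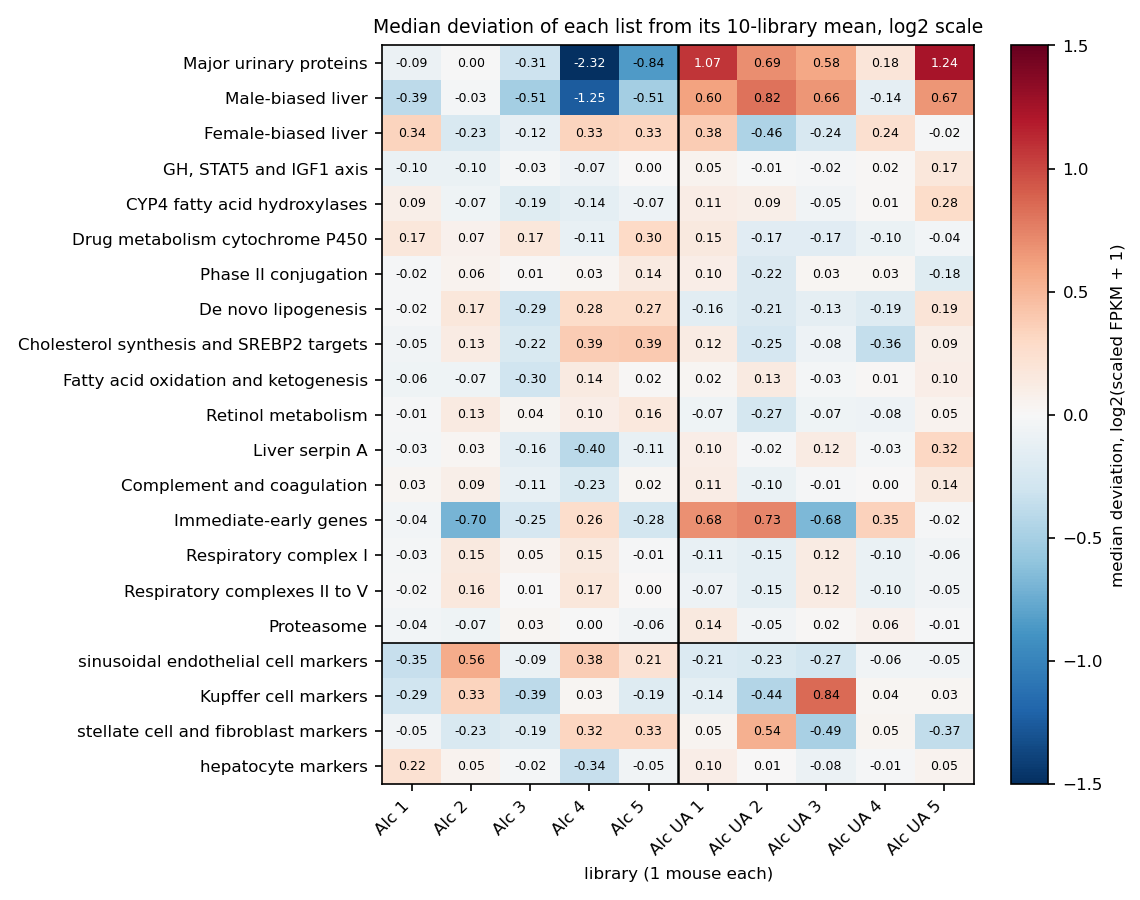
Median deviation of the genes of 17 lists and 4 marker lists from their 10-library means, for each library, on the log2 scale, with Alc libraries left and Alc UA libraries right of the line. Alc 4 is lowest in the row of Major urinary proteins at -2.32, Alc UA 3 is highest in the Kupffer row at 0.84 and lowest of its group among immediate-early genes at -0.68.

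Outside the lists, the genes with the smallest p were mostly lower in Alc UA. Cnbd2 was 68.4, 32.3, 37.4, 47.2 and 55.3 in Alc and 18.2, 22.6, 22.5, 13.5 and 20.3 in Alc UA, a difference of -1.24 ± 0.20 (adjusted p = 0.202). Sh2d4a, an adaptor protein gene, was 3.10, 4.38, 3.68, 3.96 and 4.23 in Alc and 2.40, 2.59, 2.61, 2.11 and 2.19 in Alc UA, a difference of -0.52 ± 0.09 (adjusted p = 0.202). Dhrs1, a short-chain dehydrogenase, was 64.6, 66.99, 70.1, 71.1 and 77.7 in Alc and 98.1, 92.4, 95.4, 86.8 and 88.3 in Alc UA, a difference of 0.39 ± 0.07 (adjusted p = 0.202). Dock6, a guanine nucleotide exchange factor, differed by -0.49 ± 0.09 and Raet1e, a ligand of the lymphocyte receptor NKG2D, by -0.81 ± 0.15 (adjusted p = 0.202 and 0.202). In none of these 5 genes did the groups overlap.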

How the data were processed

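Liver RNA of 15 mice, 5 per group, was sequenced, and the authors deposited 1 table of FPKM values per gene. RSEM 1.2.8, HISAT2 2.1.0, StringTie, DESeq and Bowtie2 2.2.5 appear, without roles, per the submitters' processing notes; genome build, annotation and strand setting: not given in the sources used here. The table holds no counts, so depth is unknown and no counting error can be given; the smallest value above 0 is 0.01 in every library. Columns were matched to mice by the group letter and number in their names. Of 18510 rows, 223 are at 0 in all 15 libraries, and 25 symbols have been turned into dates, 15 of them among the rows tested.

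Rows that reached 1 FPKM in 5 or more of the 10 Alc and Alc UA libraries were kept, divided by median-of-ratios size factors, and tested on log2(scaled FPKM + 1) in R 4.3.3 by limma 3.58.1 with a trend on the mean. Each gene has 8 residual degrees of freedom, and p-values were adjusted by Benjamini-Hochberg over all 10495 genes, with a threshold of 0.05. Differences are Alc UA minus Alc, ± SE, n = 5 each. The pseudocount of 1 makes this scale understate the change of low genes. The p-values test the difference between the groups against the spread between mice within each group. That spread is estimated with help from the other genes, which gives a median of 11.2 total degrees of freedom. In simulated data of 10495 genes with 200 changed, the fit recovered 60%, 92%, 96% and 100% of genes changed by 0.5, 1, 2 and 3 on the log2 scale, and 6.95% of its calls were false. The simulated noise was drawn gene by gene, without deviations shared by the genes of a library, and the 200 planted changes ease the adjusted threshold. The recovered shares therefore do not give the power in the real data, where 35 genes were higher and 13 lower by more than 1 and none was called. Library measures were compared by an exact permutation test over the 252 assignments (scipy 1.17.1, Python 3.11.15), and plots were drawn with matplotlib 3.10.9.

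Genes were grouped in 58 pathway lists and 17 cell type marker lists. Members, lists and rules were chosen with earlier results of these data known, and a list is described by its counts and median, with no test of its own. Genes are named by rule: the 15 largest differences each way among called genes whose mean is 2 FPKM or more (none was called), the 10 smallest p, the 10 highest means, the 4 members of each list with the smallest p, and a set of genes of alcohol, lipid, inflammatory and mitochondrial metabolism whatever their p; predicted gene models are tested but not named. Hsd3b5, Marco, Mup1, Mup3, Mup10, Mup-ps12, Mup-ps16, Nr4a1, Por and Spic are outside that rule and were chosen after their values were seen. Promoters are from RefSeq on GRCm38.p6. The 22 alternatives tried changed the pseudocount, the filter, the scaling, the libraries fitted, the trend, the weights, the replicate term or the test, or left out 1 of the 10 libraries.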

Additional observations from a re-analysis of the deposited data

Results flagged for a closer look

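Among 200 groups of 5 libraries, 2 for each of 100 genes, a single library lay far from the other 4 in 14 (7%), judged by its gap over the whole range on the log2 scale. Chance gives about 1 in 20 of groups not chosen by their values, but some of these genes, Marco and Spic among them, were chosen after their values were seen, so the share cannot be read against it. The values below are scaled FPKM.

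Alc UA 3 was the high library for 4 macrophage genes. It held 137 of Marco against 4.42 to 11.98 in the other Alc UA livers. For Cd5l, a secreted macrophage protein, it held 207 against 44.2 to 57.1, for Spic 31.1 against 0.781 to 1.31, and for Adgre1 25.04 against 4.09 to 4.55. Alc 4 was the outlying library for 5 genes. It was low for Mup19 at 3208, for Mup22 at 3267, for Gckr at 77.1 and for Uroc1 at 154, and high for Ttr at 5738.

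Alc UA 2 was high for Abcb4 at 172 and for Igfbp3 at 8.20, and low for Gldc at 11.3 against 18.7 to 21.2 in the others. Alc 1 was high for Tfam at 13.1 against 11.9 to 12.2, and Alc 5 was low for Nr1d2 at 20.7 against 22.4 to 22.9.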

How the results depend on the processing

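No gene passed an adjusted p of 0.05 in the fit reported or in 19 of the 22 alternatives. All 15 libraries in the fit gave 1 higher gene on 1 list, and leaving out Alc UA 1 gave 1 higher and 1 lower gene on 2 lists, so that leaving out a library gave 0 to 1 genes each way on 0 to 2 lists. The replicate block gave 2 higher genes on 3 lists, Mup12 and Cyp4a12b, with a smallest adjusted p of 0.0484, and 1053 genes at an unadjusted p under 0.05. The labels give the groups the same numbers, but deviations of same-numbered libraries correlated at 0.126, -0.112, 0.188, -0.0855 and 0.114 and only number 3 correlated best with its own, so the numbers were not treated as pairs. Counts at an unadjusted p under 0.05 were 882 in the fit reported, 87 when a fold of 1.2 was tested, 1416 with library weights, 1290 after scaling to equal sums and 1295 of 17851 genes with no filter. Of 2193 alternative values for the 100 genes named, 2171 kept direction and side of the threshold. Those that turned, on the log2 scale, were Mup10 (-0.0078) and Cyp2e1 (-0.18) with quantile normalization, Pink1 (-0.013), Sirt1 (-0.0094) and Tfam (-0.0501) after scaling to equal sums, and Tfam (-0.0006266) as deposited. Mup-ps12 was -0.0077 with a pseudocount of 5, -0.0564 as deposited, -0.11 with the same sum and -0.17 with weights. Leaving out 1 library gave ranges that crossed 0 for Spic (-0.13, without Alc UA 3, to 0.915), Saa1 (-0.15 to 0.79) and Mup-ps12 (-0.15 to 0.12). The cause of these changes was not tested. Of 1562 list medians, 38 moved by more than the SD between libraries. Without counts, the limit that depth sets cannot be given.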
